A study of Mus musculus with 4 samples.

Results

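Endothelial adhesion molecules were followed through the brain vascular-associated cells of mice under chronic social defeat (CSD) or home cage (HC) housing. The group comprised 8 of the 31053 genes in the count matrices, Vcam1, Icam1, Icam2, Pecam1, Cdh5, Esam, Mcam and Alcam. They were listed by symbol as known surface molecules of vessel walls. The rule holds no measured value, but the list was made with earlier results of these data known, among them high Vcam1 and Icam1 in venous cells. All 8 were found, and all 8 were counted in endothelial cells.

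The cells came from whole brains without cerebellum, striatum, brainstem and olfactory bulbs, were dissociated mechanically and with collagenase II, and were captured with beads against CD31. There were 4 libraries of 10x 3′ single-cell RNA, CSD 1, CSD 2, HC 1 and HC 2, each a pool of 4 wild-type male C57BL/6 mice of 12 to 14 weeks, so 2 libraries stood for each condition. CSD mice lived for 14 days beside an aggressive CD-1 mouse with a daily agonistic encounter. HC mice lived for 14 days with a partition between neighbours that stayed in place throughout, and both groups were handled by the same capture. The pools hold different mice, so the spread between 2 libraries of a condition covers animals, dissociation and sequencing together. The CD31 capture is a limit of the design, because Pecam1 encodes CD31 itself and its presence in endothelial cells was selected for.

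These molecules hold endothelial cells together and mediate the arrest of white blood cells on the vessel wall. Pecam1, Cdh5 (VE-cadherin) and Esam sit at the junctions between endothelial cells, and Icam2 is a constitutive counter-receptor of leukocyte integrins. Vcam1 and Icam1 are the inducible members, raised on endothelium by inflammatory cytokines through NF-kB, and in resting brain they are known to be more abundant in veins than in capillaries. Mcam (CD146) is found on mural cells as well as on endothelium, and Alcam (CD166) is a homophilic adhesion molecule of several cell types.

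In the GRCm38 build with GENCODE vM21 genes, Vcam1 spanned chr3:116109949-116129688 on the minus strand, Icam1 chr9:21015985-21028817 on the plus strand and Icam2 chr11:106377656-106388075 on the minus strand. Pecam1 spanned chr11:106654217-106750628 on the minus strand, Cdh5 chr8:104101625-104144511 on the plus strand and Esam chr9:37528078-37538319 on the plus strand. Mcam spanned chr9:44134469-44142727 on the plus strand and Alcam chr16:52248996-52454074 on the minus strand. Opposite-strand genes overlapped Vcam1 (Gm43109), Icam1 (Gm47079), Cdh5 (Gm29682) and Mcam (Gm10687), and none overlapped on the same strand.

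Promoters from RefSeq (build GRCm38.p6, 250 bases before to 50 after the start) matched 3 of the 8 members. Icam1 is shown because its transcript was called in the venous comparisons, and Mcam and Alcam are shown as members whose transcripts lay mainly outside endothelium. The Icam1 window was chr9:21015690-21015989 on the plus strand, the Mcam window chr9:44134408-44134707 on the plus strand and the Alcam window chr16:52453032-52453331 on the minus strand. Capitals in Icam1 mark a kB-like motif (GGNNNTTCC) and TATAAA, capitals in Mcam mark the GC box (GGGCGG) and a cyclic AMP response element (TGACGTCA), and capitals in Alcam mark the GC box. All motifs were read on both strands.
Icam1: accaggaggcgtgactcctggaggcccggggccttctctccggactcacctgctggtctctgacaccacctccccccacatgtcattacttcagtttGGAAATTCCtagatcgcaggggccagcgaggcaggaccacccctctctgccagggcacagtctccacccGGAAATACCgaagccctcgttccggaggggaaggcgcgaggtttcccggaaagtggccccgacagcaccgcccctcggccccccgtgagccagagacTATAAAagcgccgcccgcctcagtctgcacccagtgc
Mcam: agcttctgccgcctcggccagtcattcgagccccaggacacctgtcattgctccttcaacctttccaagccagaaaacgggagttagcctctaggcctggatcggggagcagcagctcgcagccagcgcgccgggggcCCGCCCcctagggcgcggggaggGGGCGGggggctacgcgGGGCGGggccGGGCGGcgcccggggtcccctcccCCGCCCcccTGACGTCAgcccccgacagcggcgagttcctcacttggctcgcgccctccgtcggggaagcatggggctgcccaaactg
Alcam: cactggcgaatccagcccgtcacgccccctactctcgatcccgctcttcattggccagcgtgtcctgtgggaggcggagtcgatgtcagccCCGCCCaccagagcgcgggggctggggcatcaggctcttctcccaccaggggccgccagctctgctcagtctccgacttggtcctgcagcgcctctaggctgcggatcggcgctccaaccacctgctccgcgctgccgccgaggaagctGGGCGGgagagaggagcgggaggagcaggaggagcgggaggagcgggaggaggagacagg

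The Icam1 window held 2 kB-like matches, with first bases 153 and 84 bases before the RefSeq start, and 1 TATAAA, which lay 32 bases before the GENCODE start and 13 after the RefSeq start. Among 27025 promoters of the same length, 18.4% held the kB-like motif and 14.2% TATAAA. Mcam and Alcam held neither. The Mcam window held 5 GC boxes and 1 cyclic AMP response element, against 35.9% and 1.88% of promoters with at least 1, and Alcam and Icam1 each held 2 GC boxes, which are not in capitals in Icam1. The AP-1 motif TGANTCA, in 7.93% of promoters, was in none of the 3 windows. The RefSeq starts of Mcam and Alcam lay downstream of the GENCODE starts, so most of the Mcam window and all of the Alcam window lay inside the GENCODE gene. The matches describe these letters and not binding.

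The libraries held 27297599 to 30361474 UMIs each, and 14415 cells passed the limits of at least 500 UMIs, at least 250 genes and at most 25% mitochondrial UMIs. Between 2553 (CSD 2) and 4934 (HC 2) cells came from a library, with median depths of 1408 to 2357 UMIs. CSD 2 stood apart, with 32.6% of its UMIs in cells against 51.8% to 56.8% in the other 3. Across library pairs, 20 cell barcodes were shared, the most (9) between CSD 1 and HC 2. Cells were placed in classes by counts of detected marker genes, none of them a member, and 1914 cells (13.3%) stayed unplaced. The endothelial class held 4957 cells, and its 10 markers took 20840 to 26510 CPM (counts-per-million of the class total). It was divided into 4306 capillary, 266 arterial, 105 venous and 37 fenestrated cells, and 243 without a subclass. The venous class was small in every library, with 16 cells in CSD 1, 28 in CSD 2, 27 in HC 1 and 34 in HC 2, so its values rest on few cells.

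Levels are counts-per-million (CPM), the UMIs of a gene scaled to the UMI total of a class in a library, and they compare 1 gene between classes, not genes with each other. As a gauge of RNA outside cells, barcodes with at most 100 UMIs gave 74.8 to 86.5 CPM for Vcam1, 19.7 to 37.7 for Icam1, 9.75 to 24.8 for Icam2 and 22.7 to 54.8 for Pecam1. The corresponding ranges were 20.5 to 35.1 for Cdh5, 50.2 to 81.3 for Esam, 15 to 27.8 for Mcam and 24.6 to 34.8 for Alcam. Levels across classes are described without a test, because the members were picked as endothelial genes.

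The junctional members were endothelial in every library. Pecam1 stood in the endothelial class at 434 CPM in CSD 1, 623 in CSD 2, 448 in HC 1 and 428 in HC 2, against 13.8 ± 1.27 (SD, n = 4) in microglia. CSD 2 was the highest library, and the other 3 lay close together. Cdh5 stood in endothelial cells at 430, 398, 459 and 411 CPM in CSD 1, CSD 2, HC 1 and HC 2, and outside endothelium its next level was 74.6 ± 53.7 (SD, n = 4) in fibroblast-like cells. Within endothelium, Cdh5 levels were 495 ± 17.2 in arterial, 419 ± 28.7 in capillary and 350 ± 89.3 in venous cells (SD, n = 4), with the arterial and capillary ranges apart and the capillary and venous ranges overlapping.

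Esam, a junctional immunoglobulin-family molecule, extended to mural cells. Its endothelial levels were 767, 850, 774 and 749 CPM in CSD 1, CSD 2, HC 1 and HC 2. It stood at 806 ± 37.1 in capillary, 718 ± 125 in venous and 638 ± 56.8 in arterial cells, and then at 470 ± 29.2 in pericytes and 170 ± 38.8 in smooth muscle (SD, n = 4). The steps from arterial cells to pericytes and from pericytes to smooth muscle held in 4 of 4 libraries without overlap, while the 3 endothelial subclasses overlapped with their neighbours in that order. In microglia and choroid plexus Esam was at 2.65 and 0.560 CPM, far under the level of free RNA.

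Icam2 was higher in arterial than in capillary cells. Its arterial levels were 346, 543, 455 and 367 CPM in CSD 1, CSD 2, HC 1 and HC 2, against 234 ± 27.1 in capillary and 219 ± 90.6 in venous cells (SD, n = 4). All 4 arterial values lay above all capillary values, while capillary and venous values overlapped. The 37 fenestrated cells, too few in CSD 2 for a test, had 429 ± 111 (SD, n = 4). Outside endothelium its highest mean among the classes with enough cells was 21.5 ± 28.8 in T cells.

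The inducible pair was spread over more cell types. Vcam1 reached 2782 CPM in venous cells of CSD 1, 7186 in CSD 2, 93.8 in HC 1 and 875 in HC 2. Both CSD values exceeded both HC values, and HC 1 lay near the free RNA level. In fibroblast-like cells it was at 958, 690, 1086 and 670 CPM in the same order, so venous and fibroblast-like ranges overlapped. Below them came arterial (232 ± 94.3), choroid plexus (192 ± 17.2), capillary (147 ± 88.9) and astrocyte-like cells (108 ± 39.8; SD, n = 4), each overlapping with the next, and the 50 border macrophages had 611 ± 332. Microglia, pericytes and smooth muscle had at most 18.0 CPM on average, under the free RNA level.

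Icam1 was higher in venous cells than in microglia in both CSD libraries, and lower in both HC libraries. Its venous levels were 1736, 3437, 188 and 321 CPM in CSD 1, CSD 2, HC 1 and HC 2, with both CSD libraries above both HC libraries. Its microglial levels were even, at 396, 423, 429 and 357 in the same order, and overlapped the venous range. Capillary cells had 161 ± 68.7, fibroblast-like cells 117 ± 40.6 and arterial cells 50.8 ± 21.1 (SD, n = 4). Microglia stood above capillary cells in 4 of 4 libraries without overlap. Choroid plexus, ependymal and mural cells had at most 8.19 on average.

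Mcam and Alcam were mostly outside endothelium. Mcam was at 463, 677, 508 and 539 CPM in smooth muscle of CSD 1, CSD 2, HC 1 and HC 2 and at 157, 353, 288 and 213 in pericytes, with no overlap between these classes. In the endothelial class it was at 14.1, 5.64, 8.0 and 10.3 in the same order, under the free RNA level, and no venous cell held an Mcam UMI, which allows up to 18.8% of cells with a UMI in CSD 1 (3 counts of 16 cells). Arterial cells had 30.5 ± 6.01 (SD, n = 4), close to the free RNA range and the highest Mcam level of the 3 endothelial subclasses. Alcam stood at 221 ± 181 in fibroblast-like, 95.5 ± 14.3 in astrocyte-like and 49.4 ± 19.5 in ependymal cells (SD, n = 4), and its endothelial level of 19.4 ± 3.94 was under the free RNA level. The oligodendrocyte precursor class, with 8 cells in HC 2, had 319 ± 83.0.

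**Figure D1:**
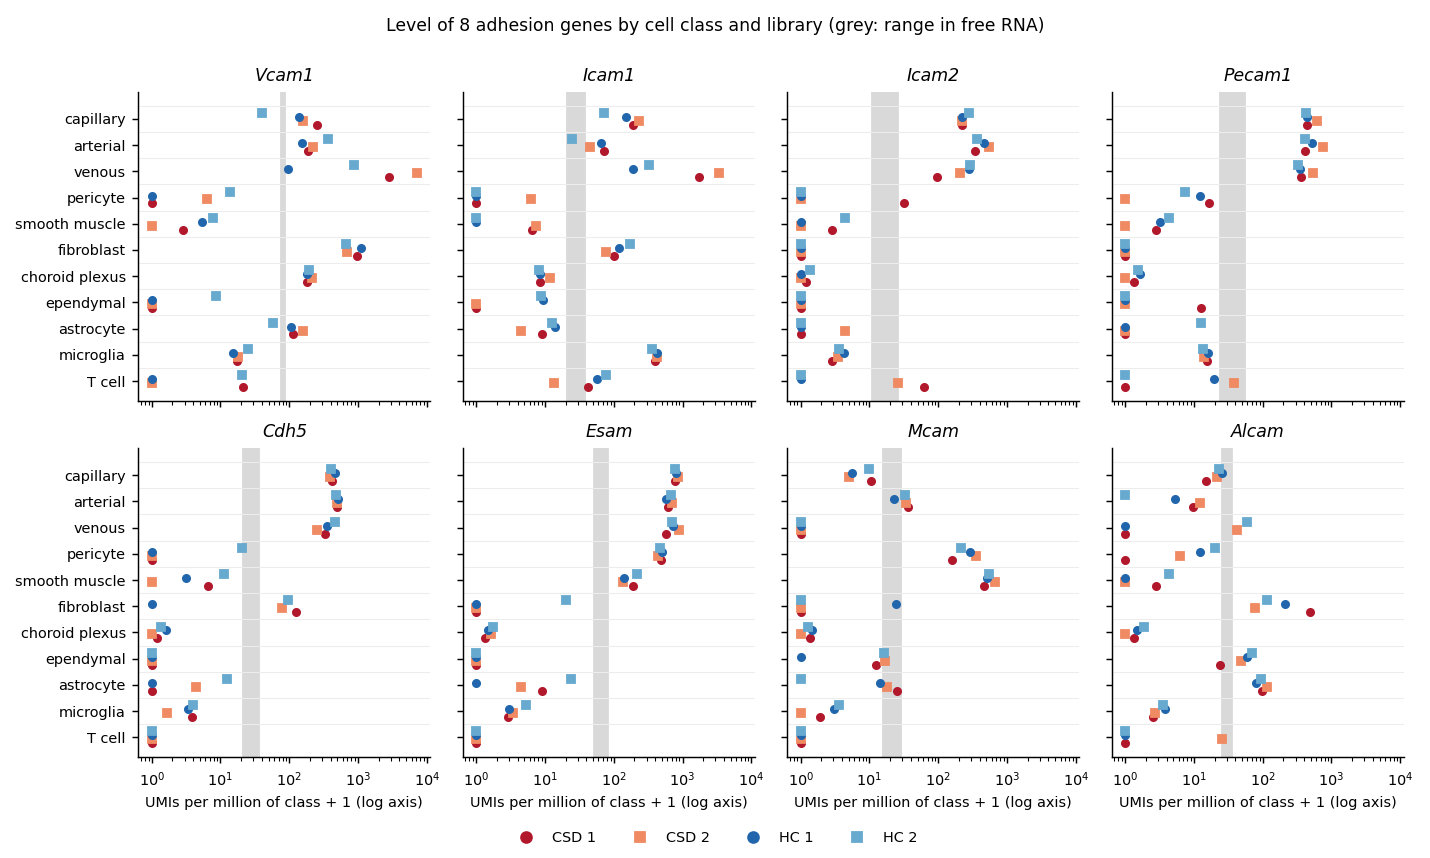
Each panel plots 1 member's level in 11 cell classes as UMIs scaled to counts-per-million plus 1 on a log axis, with a point for each of the 4 libraries and grey for the free RNA range. Icam2, Pecam1 and Cdh5 are highest in the 3 endothelial subclasses, and Mcam is highest in smooth muscle (547 on average). In CPM, though not on the log axis, Vcam1 and Icam1 in venous cells have the largest SD between libraries (3175 and 1516).

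Junctional members were detected in more endothelial cells than the inducible pair, at low depth. After each cell was thinned to 500 UMIs, 18.4% to 27.2% of endothelial cells held a Pecam1 UMI, 18.0% to 19.9% a Cdh5 UMI and 30.8% to 35.3% an Esam UMI over the 4 libraries. Icam2 was in 9.28% and 9.63% in CSD 1 and CSD 2 and in 11.4% and 12.4% in HC 1 and HC 2 (exact two-sided permutation p = 0.333). The Icam2 difference, CSD minus HC, was -2.42 percentage points at 500 UMIs, -4.02 at 1000 UMIs and -0.16 unthinned, where the groups overlapped. Without thinning the ranges were 33.4% to 58.9% for Pecam1, 31.5% to 49.3% for Cdh5, 49.4% to 68.0% for Esam and 23.6% to 32.3% for Icam2, each lowest in HC 2, the library with the lowest median depth. After thinning to 500 UMIs, between 32.6% and 37.4% of endothelial cells held no UMI of any member. At the same 500 UMIs, Vcam1 was in 4.16% of endothelial cells of CSD 1, 4.03% in CSD 2, 3.04% in HC 1 and 1.95% in HC 2. The difference of 1.60 percentage points between conditions had an exact two-sided permutation p of 0.333, the smallest that 2 against 2 libraries can give, and without thinning the shares were 7.37%, 6.04%, 6.29% and 3.85% and overlapped. Thinned to 1000 UMIs, in the 623 to 744 cells per library that reached it, they were 6.47%, 3.63%, 4.33% and 4.58%, a difference of 0.59 points with overlap (exact permutation p = 1). Pericytes, which should lack Vcam1, had 0.147% at 500 UMIs, with median depths of 989 UMIs in pericytes and 1084 in endothelial cells. Icam1 was in 3.38%, 4.73%, 2.82% and 2.18% of endothelial cells in the same order (exact p = 0.333), against 0.189% in pericytes, and unthinned in 9.54%, 8.32%, 7.48% and 4.48%.

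Subclasses were compared in a fit with library as a block, using edgeR's quasi-likelihood test with Benjamini-Hochberg adjustment over 3457 genes. In the contrast of venous with capillary cells 138 genes were called (3.99%), and 2 of the 6 members tested were called, both higher in venous cells. High venous Vcam1 and Icam1 was known when the members were listed, so these values are not independent support for it. Vcam1 was higher by 4.04 ± 0.44 (log2, SE; adjusted p = 1.1e-07) and Icam1 by 3.04 ± 0.28 (adjusted p = 5.2e-09). Like the other subclass contrasts, this one took CSD and HC libraries together and was not tested in HC alone. Mean Icam1 was 2586 CPM in venous and 212 in capillary cells under CSD, and 254 and 111 under HC. For Vcam1 these means were 4984 and 206 under CSD, and 484 and 88.3 under HC. Venous Vcam1 exceeded capillary Vcam1 in CSD 1, CSD 2 and HC 2 but not in HC 1, where the venous level was 93.8 and the capillary level 138 CPM. Venous Icam1 exceeded capillary Icam1 in all 4 libraries. The other 4 members had estimates between -0.26 and -0.09 with SEs of 0.15 to 0.27. Without CSD 2 both calls held (Vcam1 3.04, Icam1 2.33). With edgeR's robust fit the Vcam1 call was lost (adjusted p = 0.0713). Mcam and Alcam had too few UMIs to be tested.

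In the contrast of arterial with capillary cells 564 genes were called (16.3%), and 2 members were called in opposite directions. Icam2 was higher in arterial cells by 0.87 ± 0.14 (log2, SE; adjusted p = 3.3e-05 in edgeR), and it was called under all 11 alternatives, at 0.75 to 1.0. Icam1 was lower in arterial cells by edgeR, at -1.48 ± 0.41 (adjusted p = 0.0091). The Icam1 call was lost with a robust fit (adjusted p = 0.282), without CSD 1 (adjusted p = 0.0833) and with a longer venous marker list (adjusted p = 0.511). Esam was at -0.32 ± 0.11 (adjusted p = 0.0506), Cdh5 at 0.26 ± 0.12 (adjusted p = 0.174), and Vcam1 at 0.71 ± 0.49 (adjusted p = 0.397). For Vcam1 the value moved from 0.03 without HC 2 to 2.21 with the longer venous list, and it was called by edgeR under 4 of the alternatives.

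Between venous and arterial cells 353 genes were called (10.2%), and 3 members were called. Vcam1 was higher in venous cells by 3.34 ± 0.49 (log2, SE; adjusted p = 1.2e-05 in edgeR) and Icam1 by 4.52 ± 0.39 (adjusted p = 8.4e-10), while Icam2 was lower, at -0.96 ± 0.27 (adjusted p = 0.0168). The Vcam1 call was lost with a robust fit (adjusted p = 0.105). The Icam2 call held in 7 of 11 alternatives and was lost in edgeR without CSD 1 (adjusted p = 0.0915), without CSD 2 (0.0639), without HC 1 (0.0516) and without cells carrying markers of another class (0.231). Cdh5 was at -0.52 ± 0.20 without a call (adjusted p = 0.116).

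**Figure D2:**
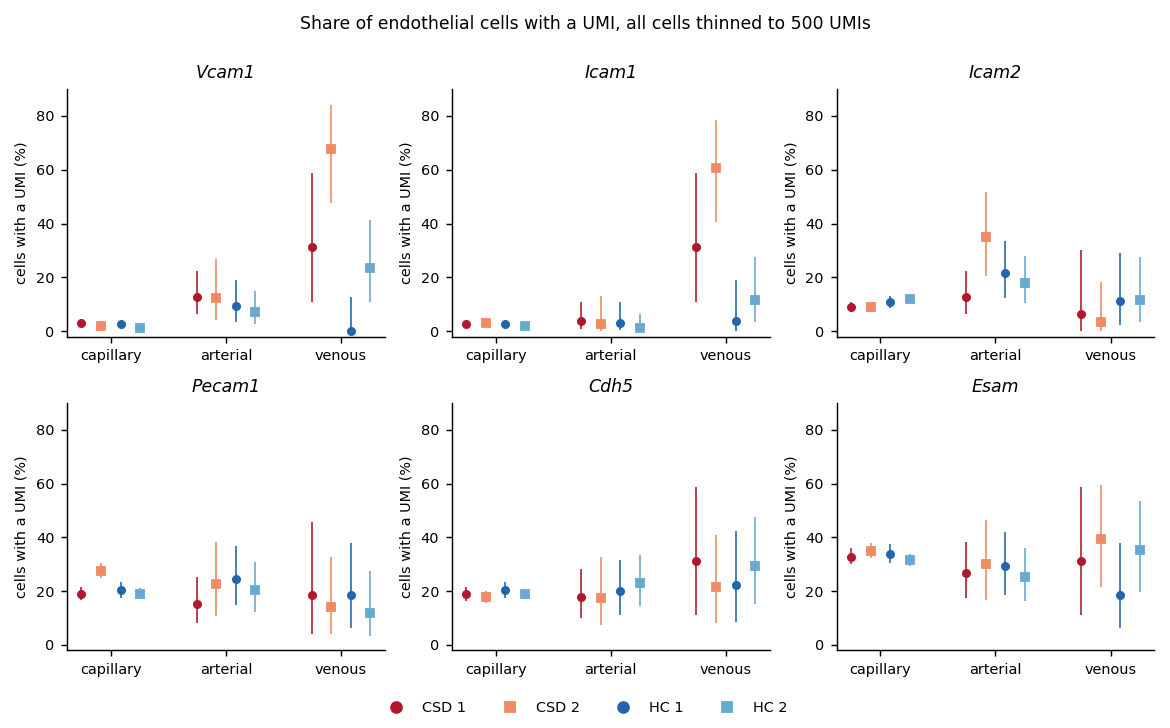
The percentage of cells with a UMI of each of 6 members, at 500 UMIs per cell, is plotted for capillary, arterial and venous cells in each library, with exact 95% intervals. Venous Vcam1 runs from 0% in HC 1 to 67.9% in CSD 2, while capillary shares of Vcam1 average 2.16%.

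For CSD against HC in all endothelial cells, 5 of 9987 genes were called (0.0501%), and no member was. The edgeR test gave 2 members an unadjusted p under 0.05, and DESeq2 called the same 2, Vcam1 and Icam1, among 43 of 17123 genes. Vcam1 was at 295 CPM in CSD 1, 324 in CSD 2, 136 in HC 1 and 78.8 in HC 2, and the groups did not overlap. The HC 2 value lay within the free RNA range of 74.8 to 86.5 CPM for Vcam1. The log2 difference, CSD minus HC, was 1.59 ± 0.25 (SE; adjusted p = 0.123 in edgeR). Icam1 was at 204, 301, 139 and 73.9 in the same order, also without overlap, with a log2 difference of 1.31 ± 0.31 (adjusted p = 0.266). Vcam1 was called under 7 of 15 alternatives and Icam1 under 4, with Vcam1 estimates of 0.94 to 2.07. These counts include fits without a library, which leave 1 library for a condition. Such fits gave 1.24 to 2.07 for Vcam1 and 0.92 to 1.86 for Icam1. Without CSD 2, the library with the fewest UMIs in cells, Vcam1 was at 1.52 and Icam1 at 1.01. Without the cells that carried 2 or more markers of another class, the mean endothelial level fell from 208 to 116 CPM for Vcam1 and from 179 to 122 for Icam1, and the log2 differences were 0.94 and 0.71, neither called.

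The constitutive members differed less between conditions in the endothelial class. Icam2 was at 237, 230, 254 and 284 CPM in CSD 1, CSD 2, HC 1 and HC 2, with a log2 difference of -0.14 ± 0.14 (adjusted p = 0.858 in edgeR) although the groups did not overlap. Pecam1 was at 0.34 ± 0.19 (adjusted p = 0.719) and Esam at 0.15 ± 0.14 (adjusted p = 0.836), and for each the groups overlapped. Cdh5 had an estimate of -0.00 ± 0.15, and Mcam (0.16 ± 0.49) and Alcam (-0.27 ± 0.27) rest on levels under the free RNA level. The median log2 difference was 0.16 over the 8 members and 0.01 over all genes tested.

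The subclasses split this difference unevenly. Among capillary cells, 6 of 9575 genes were called (0.0627%) and no member, with 2 members at an unadjusted p under 0.05 in edgeR and 1 in DESeq2. Capillary Vcam1 was at 256, 157, 138 and 38.8 CPM in CSD 1, CSD 2, HC 1 and HC 2, which is 1.28 ± 0.47 on the log2 scale (adjusted p = 0.484 in edgeR). Its HC 2 value lay under the free RNA range of 74.8 to 86.5 CPM. Capillary Icam1 was at 190, 234, 150 and 71.9, which is 0.99 ± 0.29 (adjusted p = 0.350 in edgeR). For both genes the CSD libraries lay above the HC libraries, Vcam1 by a narrow margin between CSD 2 and HC 1. Leaving out 1 library leaves 1 for a condition, so only the estimates of these fits are given. They ran from 0.63 without HC 2 to 2.49 without HC 1 for Vcam1 and from 0.54 to 1.64 for Icam1. Over all 17 alternatives, the lowest estimates were 0.36 for Vcam1 and 0.45 for Icam1. Vcam1 was called under 5 of the 17 and Icam1 under 3, counts that include fits without a library. Without cells carrying markers of another class, mean capillary Vcam1 was 83.0 CPM, within its free RNA range.

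In arterial cells 1 of 3134 genes was called (0.0319%) and none of the 6 members tested. No member reached an unadjusted p of 0.05 in edgeR or DESeq2. Arterial Vcam1 was at 188, 222, 152 and 367 CPM in CSD 1, CSD 2, HC 1 and HC 2, with HC 2 the highest, and its log2 difference was -0.28 ± 0.38 (adjusted p = 0.995 in edgeR). Leaving out 1 library at a time moved that estimate between -0.84 and 0.39, so its sign was not stable. Arterial Icam1 was at 70.1, 44.4, 65.0 and 23.9, with overlapping groups and a log2 difference of 0.31 ± 0.58.

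Venous cells gave 1 member call. Here 10 of 695 genes were called (1.44%), and of 6 members tested Icam1 was called. It was higher in CSD by 3.35 ± 0.50 (log2, SE; adjusted p = 0.0231 in edgeR), with group means of 2586 ± 1203 and 254 ± 94.2 CPM (SD, n = 2). Venous Icam1 had 73, 165, 8 and 11 UMIs in CSD 1, CSD 2, HC 1 and HC 2. It therefore passed the filter on low counts through the CSD libraries, and the call is not independent of the high level there. The call held in 14 of 15 alternatives, at 1.69 to 3.80, and was lost with a longer venous marker list (1.69, adjusted p = 0.0625 in edgeR). That list gave a larger venous class, with 60, 63, 48 and 52 cells in CSD 1, CSD 2, HC 1 and HC 2, and 12 of 2935 genes were called. Vcam1 was higher by 3.42 ± 0.83 without a call (adjusted p = 0.116), with group means of 4984 ± 3114 and 484 ± 552. Vcam1 was called under 10 of 15 alternatives. This count and that for Icam1 include fits without a library, which leave 1 library for a condition. With 117, 345, 4 and 30 UMIs in CSD 1, CSD 2, HC 1 and HC 2, Vcam1 also needed a CSD library to pass the filter of the reported fit. Its venous test is thus not independent of the high level there. Its estimate was 5.63 without HC 2 and 2.51 without HC 1 or without CSD 2. Without CSD 2 the Icam1 estimate was 2.69. Without cells carrying 2 or more markers of another class, mean venous Vcam1 fell from 2734 to 1602 CPM, and Icam1 (3.12) and Vcam1 (2.63) were both called among 13 of 349 genes.

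The other venous members gave no call. Icam2 was at 95.1, 208, 281 and 292 CPM in CSD 1, CSD 2, HC 1 and HC 2, with both CSD values lower and a log2 difference of -0.89 ± 0.55 (adjusted p = 0.529 in edgeR). Pecam1 was at 0.40 ± 0.39 and Cdh5 at -0.50 ± 0.39, and neither passed the test. Esam was at 0.01 ± 0.35, with overlapping groups. The log2 median over the 6 members was 0.21, against 0.01 over all genes tested.

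**Figure D3:**
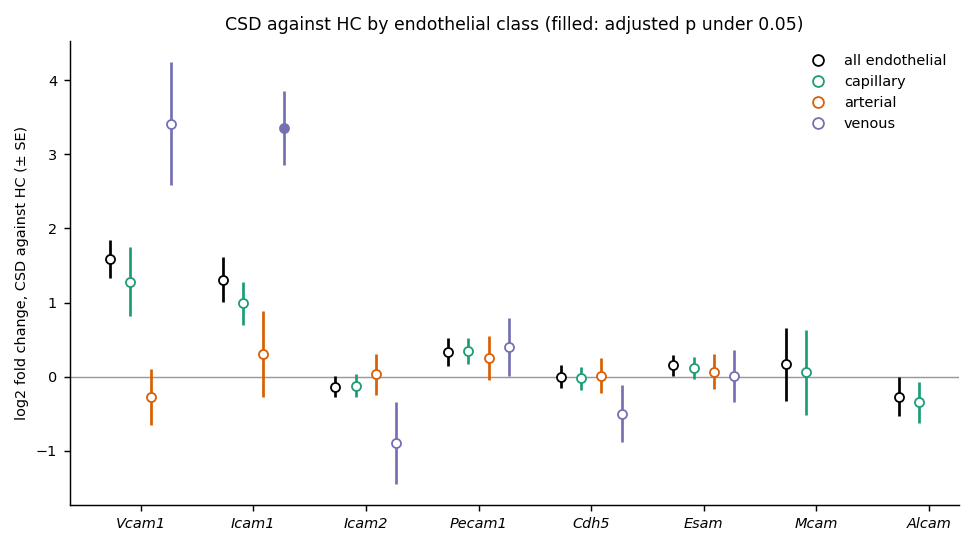
The log2 difference between CSD and HC (± SE) is plotted for each member in the endothelial, capillary, arterial and venous classes, with filled points for adjusted p under 0.05. Venous Icam1 at 3.35 is the only filled point, venous Vcam1 at 3.42 has the wider error, and the junctional members lie between -0.50 and 0.40.

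Whether the response differed between subclasses was tested by the interaction of subclass and condition, with library as a block. For venous minus capillary cells 10 of 3457 genes were called (0.289%), and of 6 members Icam1 was called. Its response was larger in venous cells by 2.51 ± 0.40 (log2, SE; adjusted p = 0.000166 in edgeR). The Icam1 call was lost without HC 1 (1.51, adjusted p = 0.939) and with a longer venous list (1.29, adjusted p = 0.0536). Vcam1 differed by 2.24 ± 0.64 (adjusted p = 0.178), and that estimate ran from 0.13 without HC 1 to 5.12 without HC 2. The other 4 members had differences between -0.65 and 0.19 and no call. For arterial minus capillary cells no gene was called by edgeR (0%), and 1 member, Vcam1, had an unadjusted p under 0.05 with a difference of -1.49 ± 0.65 (adjusted p = 1.0). That Vcam1 estimate ran from -3.29 without HC 1 to -0.20 without HC 2, and it was called only without the filter on low counts (adjusted p = 0.0269).

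The venous result came from few cells. At 500 UMIs per cell, Vcam1 was detected in 5 of 16 venous cells of CSD 1 (31.3%, exact 95% interval 11% to 58.7%), 19 of 28 of CSD 2 (67.9%, 47.6% to 84.1%), 0 of 27 of HC 1 and 8 of 34 of HC 2 (23.5%, 10.7% to 41.2%). The count of 0 in HC 1 allows a share of up to 11.1% of cells with a UMI (3 counts of 27 cells), and intervals and limits cover counting error only. CSD 2 lay above both HC libraries beyond these intervals, and the interval of CSD 1 overlapped with those of both HC libraries. Icam1 was detected in 5 of 16 (31.3%), 17 of 28 (60.7%, 40.6% to 78.5%), 1 of 27 (3.70%, 0.0937% to 19.0%) and 4 of 34 (11.8%, 3.30% to 27.5%) venous cells in the same order. Unthinned, Vcam1 was detected in 50%, 71.4%, 14.8% and 32.4% of venous cells and Icam1 in 56.3%, 78.6%, 14.8% and 14.7%. The median depths of these cells were 1257, 911, 1291 and 834.5 UMIs and their UMI totals 42059, 48012, 42654 and 34288, so the mean UMIs per cell, unlike the medians, were higher in both CSD libraries than in either HC library.

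A few cells held most UMIs of either gene. In the venous cells of CSD 2, 223 of 345 Vcam1 UMIs and 78 of 165 Icam1 UMIs came from the cell with the most, and in CSD 1 the top cell held 56 of 117 and 33 of 73. HC 1 and HC 2 had 4 and 30 Vcam1 UMIs with at most 1 and 6 in a cell, and 8 and 11 Icam1 UMIs with at most 3 in a cell. In all endothelial cells, 50% of Vcam1 UMIs lay in 7 cells of CSD 1, 4 of CSD 2, 5 of HC 1 and 15 of HC 2, and 50% of Icam1 UMIs in 10, 5, 7 and 17 cells. Thinning every cell to 500 UMIs, which limits the weight of any cell, was chosen after seeing the data. Both genes were then called in venous cells, among 5 of 190 genes, and Vcam1 but not Icam1 in all endothelial cells, among 27 of 7027. Thinned venous UMIs in CSD 1, CSD 2, HC 1 and HC 2 were 14, 64, 0 and 14 for Vcam1 and 7, 45, 1 and 4 for Icam1. Icam1 thus entered that test through the CSD libraries, and Vcam1, at 0 in HC 1, needed a CSD library too. Neither call there is independent evidence.

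Venous cells made up 1.39%, 2.45%, 2.93% and 1.95% of endothelial cells in CSD 1, CSD 2, HC 1 and HC 2. They held 20.7%, 50%, 1.57% and 20.5% of endothelial Vcam1 UMIs and 18.6%, 25.8%, 3.08% and 8.03% of endothelial Icam1 UMIs. In HC 1 the venous part of both genes was close to or under the venous share of cells. In the other 3 libraries it was above that share, and most of the remaining UMIs of both genes lay in capillary cells. Arterial cells held 31.5% of the Vcam1 UMIs of HC 2.

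Joint detection of Vcam1 and Icam1 is given as a description, with no test. Among endothelial cells with a Vcam1 UMI at 500 UMIs, 11 of 48 (22.9%) in CSD 1, 28 of 46 (60.9%) in CSD 2, 4 of 28 (14.3%) in HC 1 and 1 of 34 (2.94%) in HC 2 also held an Icam1 UMI. Among cells without Vcam1 the Icam1 shares were 2.53%, 2.37%, 2.46% and 2.17%. The joint share was highest in CSD 2, and in HC 2 it was close to the share without Vcam1. For the junctional Pecam1 the shares were 14.6%, 26.1%, 10.7% and 17.7% among cells with Vcam1 and 18.6%, 27.2%, 20.8% and 19.2% among cells without it.

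**Figure D4:**
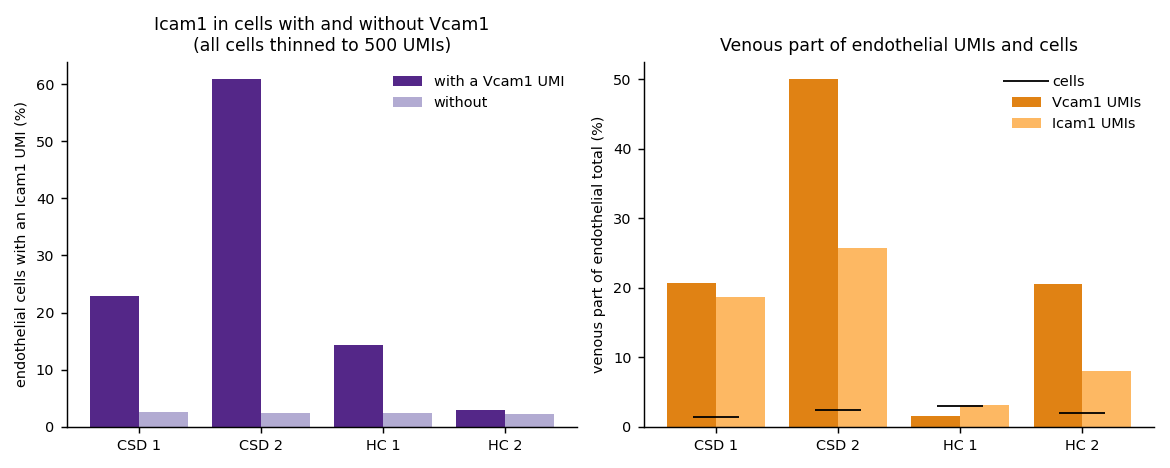
The left panel plots, by library, the percentage of endothelial cells with an Icam1 UMI among cells with and without a Vcam1 UMI, and the right panel the venous percentage of endothelial cells, Vcam1 UMIs and Icam1 UMIs. CSD 2 is highest in both, with 60.9% joint detection and 50% of Vcam1 UMIs from venous cells.

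The venous class was checked for its own markers and for those of other cells. Its 6 markers summed to 3590, 7186, 3212 and 3529 CPM in CSD 1, CSD 2, HC 1 and HC 2. One of them, Ackr1, a chemokine-binding receptor of venules, moved with condition, at 499, 2062, 0 and 0. Without Ackr1 in the marker list the venous cells numbered 14, 28, 27 and 34, Icam1 was higher in CSD by 3.23 (log2; adjusted p = 0.0482 in edgeR), Vcam1 by 3.33 (adjusted p = 0.138), and the Icam1 interaction was 2.20 (adjusted p = 0.0120). Of 9 fibroblast markers 3 were detected, at 618, 979, 328 and 292 CPM in sum, nearly all from Apod, while Dcn, Lum, Col1a1 and Col1a2 were at 0. Of 10 microglial markers 8 were detected, at 262, 20.8, 164 and 350 in sum, with Tmem119 and Siglech at 0. All 9 astrocyte markers were detected, at 262, 1021, 375 and 379 in sum, highest in CSD 2, and 7 of 8 choroid plexus markers at 285, 146, 610 and 467. Of 8 monocyte markers only Fn1, which is not particular to monocytes, was detected, at 1165, 1583, 727 and 846, and all 8 T cell markers were at 0. Of 8 border macrophage markers 3 were detected, at 71.3 in CSD 1, 46.9 in HC 1 and 0 in the other 2. The other 8 lists (pericyte, smooth muscle, ependymal, oligodendrocyte, oligodendrocyte precursor, neuron, B cell and neutrophil) summed to at most 238 in a library. Of the lists for endothelial subclasses, the capillary markers stood at 2306, 2062, 2696 and 2946 CPM in the venous class, not far under its own markers in CSD 1, HC 1 and HC 2. The arterial and fenestrated lists had at most 93.8 and 70.3. The part of the astrocyte, Apod and Fn1 differences in the adhesion molecule result was not tested.

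Outside endothelium no difference between conditions was detectable for a member at this depth. Pericytes, smooth muscle, fibroblast-like cells, microglia, choroid plexus, ependymal cells, astrocyte-like cells and T cells gave 12 pairs of member and class with enough UMIs, of which none was called and none had an unadjusted p under 0.05 in edgeR. DESeq2 called none of 56 pairs. The shares of all genes called there were 0.0444% in pericytes, 0.11% in choroid plexus, 0.128% in astrocyte-like cells, 0.151% in T cells and 0% in the other 4. Vcam1 had a log2 difference of 0.00 ± 0.38 in fibroblast-like cells, 0.08 ± 0.17 in choroid plexus and 0.70 ± 0.59 in astrocyte-like cells. Icam1 was at 0.11 ± 0.27 in microglia, where 15.7% of cells held an Icam1 UMI at 500 UMIs and 50.4% without thinning. Mcam was at 0.09 ± 0.22 in smooth muscle and 0.27 ± 0.33 in pericytes, and pericyte Esam at -0.04 ± 0.22. The 50 border macrophages, only 3 of them in CSD 2, were not tested, and their Vcam1 was at 1043, 660, 488 and 254 CPM in CSD 1, CSD 2, HC 1 and HC 2.

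Other genes of the same pathways were read from lists chosen for their known roles. Of 23 cytokine-induced endothelial genes, 8 had enough UMIs to be tested in venous cells, and 5 rose under CSD and none fell. Over all genes tested in venous cells 10 of 695 were called (1.44%), all of them higher. The list was made with earlier results known, and genes with few UMIs in HC, such as Lcn2, entered the test through the CSD libraries, so these counts are no independent evidence of a direction. The 5 were Lcn2 (6.75), an iron-sequestering acute-phase protein, Cxcl1 (4.68), a neutrophil chemokine, Ch25h (4.40), a cholesterol hydroxylase, Ptgs2 (4.22), the inducible cyclooxygenase, and Nfkbia (1.88), the feedback inhibitor of NF-kB. The smallest adjusted p was 0.00702, for Ch25h and Lcn2, and the largest 0.0280, for Nfkbia, in edgeR. Venous Lcn2 was at 2045, 4228, 23.4 and 29.2 CPM in CSD 1, CSD 2, HC 1 and HC 2, and the groups did not overlap. In all endothelial cells 21 of this list were tested and Lcn2 (5.52, adjusted p = 0.00362) and Cxcl1 (1.89, adjusted p = 0.0332) rose, with a list median of 0.58. Over all genes tested in that class 5 of 9987 were called (0.0501%), all of them higher.

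The remaining lists gave no call between conditions. None of 10 other junctional adhesion molecules and none of 9 intracellular linkers passed the edgeR test in all endothelial cells, with median log2 differences of 0.24 and 0.08. Of 8 selectins and their carriers, 4 were tested (median -0.10) and none was called. The 13 immediate-early and dissociation genes, which mark the handling of cells as well as stimulation, all had estimates above 0 in the endothelial class (median 0.61) and none was called. In venous cells 8 of the 11 tested had estimates above 0 (median 0.51). Their part in the Vcam1 and Icam1 differences was not tested.

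Venous and capillary cells differed in the same cytokine-induced list. Of 10 of its genes tested, 7 were higher in venous cells and none lower, with a log2 median of 1.31 against -0.04 over all genes. Over all genes tested, 138 of 3457 were called (3.99%). The list was made with earlier results of these data known, so this count is no independent evidence of a direction. The contrast takes CSD and HC libraries together and was not tested in HC alone. The largest were Ch25h (4.29), Cxcl1 (4.06), Il1r1 (3.1), the receptor of interleukin-1, and Tnfaip3 (2.51), an inhibitor of NF-kB. Emcn, an endothelial sialomucin, was lower in venous cells (-0.79, adjusted p = 0.0194 in edgeR). In arterial against capillary cells Socs3 (0.84) and Tnfrsf1a (0.83) were higher and Il1r1 lower (-2.95). The responses to CSD of Cxcl1 and Nfkbia were larger in venous than in capillary cells by 3.46 (adjusted p = 7.2e-07 in edgeR) and 1.22 (adjusted p = 0.00525).

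The genes whose levels followed each member most closely were ranked by Pearson's r of log2(CPM + 10) over 48 points, 12 classes in 4 libraries, among 11368 genes. The 12 classes include the whole endothelial class as well as its capillary, arterial and venous parts, so most endothelial cells enter more than once. The points also share libraries and depth, so no p is given. Icam2 was followed by Sox18 (0.961), Srarp (0.960) and Sox17 (0.959), and Pecam1 by Rasip1 (0.975), Acer2 (0.975) and Ptprb (0.970), of which Ptprb is an endothelial marker of the classes. Cdh5 was followed by Plxna2 (0.965), Itm2a (0.962) and Foxq1 (0.954), and Esam by Apold1 (0.966), Slc9a3r2 (0.946) and Pcdh1 (0.944). The nearest to Mcam were Aspn (0.958), Rasl12 (0.943) and Gm13861 (0.920). The inducible pair had looser neighbours, with Dab2 (0.870), Epha4 (0.780) and Unc13b (0.763) for Vcam1 and Nfkbia (0.834), Cxcl2 (0.816) and Slco2b1 (0.805) for Icam1. Alcam was nearest to F3 (0.792), Rhou (0.791) and Mdk (0.789). Between members, r was 0.957 for Icam2 and Pecam1, 0.905 for Pecam1 and Cdh5, 0.602 for Vcam1 and Icam1 and -0.447 for Mcam and Vcam1.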

How the data were processed

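Single-cell RNA was counted in 4 libraries, 2 per condition, grouped by the sample labels. The deposited matrices hold raw UMI counts per gene and barcode, which the authors made with Cell Ranger against GRCm38. The submitters' processing notes name Cell Ranger version 4.0, and the matrix headers give software 3.1.0. The matrices hold all barcodes, so cells were selected here. All columns of per-sample values were used.

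Cells had at least 500 UMIs, 250 genes and at most 25% mitochondrial UMIs. A cell joined the class with most detected markers, at least 3, if every other class had at most 50% of that number. Endothelial subclasses needed 2 of their own markers. Classes with at least 10 cells in every library were tested. Doublets were kept in the main comparisons. Scrublet marked 0.0981% to 1.48% of cells per library, and under 0.5% means that it has not worked in the CSD libraries. Leaving out marked cells was an alternative.

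UMI counts of the cells of a class were added up within each library, since cells are not replicates. The study's own test over cells was therefore replaced by edgeR 4.0.16 (filterByExpr, TMM, quasi-likelihood test, two-sided, R 4.3.3) with Benjamini-Hochberg adjustment over all genes tested and a threshold of 0.05. A standard error is the log2 difference divided by the square root of F. Subclass contrasts and interactions had library as a block. DESeq2 1.42.0 was an alternative. The code was tested on simulated data. Shares used cells thinned to 500 UMIs, with exact (Clopper-Pearson) 95% intervals. Text names all members, called genes of each list up to 4 per direction, and the 3 genes most like each member. Members and lists were chosen with earlier results of these data known, including high Vcam1 and Icam1 in venous cells, and the motifs after the promoters were read. Other alternatives changed normalization, filters, cell limits, marker lists and libraries. Of these, 2 were chosen after seeing the data, thinning every cell before summing and dropping Ackr1 from the venous list.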

Additional observations from a re-analysis of the deposited data

Results flagged for a closer look

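The response of Icam1 to CSD differed between venous and capillary cells. For arterial minus capillary cells the Icam1 difference was -0.43 ± 0.58 (log2, SE) and not called. It was larger in venous than in capillary cells by 2.51 ± 0.40 on the log2 scale (SE, adjusted p = 0.000166, edgeR's test of the interaction of subclass and condition with library as a block). Venous Icam1 was at 1736 and 3437 CPM in CSD 1 and CSD 2 and at 188 and 321 in HC 1 and HC 2, while capillary Icam1 was at 190, 234, 150 and 71.9. The difference was called in 8 of 10 alternatives, some of which left 1 library for a condition. It was not called without HC 1, nor with a longer venous list, and could not be tested with thinned cells. It rests on 105 venous cells, while the longer list gave 60, 63, 48 and 52 venous cells in CSD 1, CSD 2, HC 1 and HC 2. In CSD 1 and CSD 2, 1 cell held 33 of 73 and 78 of 165 venous Icam1 UMIs, and HC 1 and HC 2 had 8 and 11 UMIs. High venous Icam1 was known when the members were listed.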

How the results depend on the processing

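Of 187 recomputed values that answer a comparison, 152 stayed the same, 34 moved and 1 reversed. These were counts of members called, shares and levels. A count stayed the same if it was equal or of similar size, and a level if it moved by less than its SD over libraries. A share difference reversed if its sign changed and the reported difference exceeded the SD of both conditions, and otherwise it was taken as the same. Limiting complexity (genes relative to UMIs on a log scale) to at least 0.8 left the same 16, 28, 27 and 34 venous cells. Leaving out Scrublet doublets did so too. Both could not change venous values, yet they count among the 15 alternatives for venous Icam1. The complexity limit also left the endothelial, capillary and arterial cells unchanged. It could not change their values either, yet it counts among their alternatives and among the values that stayed the same. Of 758 values of individual members, 693 kept their side of the threshold and, where the reported estimate exceeded its SE, their direction. Estimates within their SE were not held to a direction. For Icam2 in venous against capillary cells the sign was kept in 7 of 11 alternatives. The limits are 2 libraries per condition and 105 venous cells, and the causes of the changes given here were not tested.

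The number of members called under CSD in all endothelial cells was 0, among 5 of 9987 genes called. It was 2 with DESeq2 (43 of 17123 genes) and 2 without a filter on low counts (101 of 17123). It was 1 at 1000 UMIs or more (9 of 9598) and 1 with every cell thinned (27 of 7027). In capillary cells (0, among 6 of 9575 genes called) it was 2 without the filter, where 214 of 16763 genes were called. In venous cells (1, among 10 of 695 genes called) it was 2 without the filter (35 of 10368 genes) and with at most 10% mitochondrial UMIs (18 of 447). It was also 2 without cells carrying 2 markers of another class (13 of 349) and with thinned cells (5 of 190). Leaving out 1 library at a time, with the lone library of a condition assumed to vary like the others, gave 0 to 2 members in endothelial, 0 to 3 in capillary and 2 to 2 in venous cells. Venous against capillary (2) gave 1 with a robust fit and 1 thinned, where Icam1 was not tested. Arterial against capillary (2) gave 5 without the filter, 4 without cells carrying markers of another class, and 1 to 3 without a library. The interaction of venous minus capillary (1) gave 2 without the filter, 2 without cells carrying markers of another class, 0 with a longer venous list, 0 thinned and 0 to 2 without a library. The interaction of arterial minus capillary (0) gave 1 without the filter. For the subclass contrasts and interactions, all genes called are not given for each setting, so these member counts cannot be read against them. Over all genes, calls ran from 2 to 317 in endothelial cells (5 as reported), 3 to 430 in capillary (6), 5 to 63 in venous (10), 0 to 26 in arterial cells (1), 26 to 452 for venous against capillary (138), 152 to 698 for arterial against capillary (564), 108 to 656 for venous against arterial (353) and 1 to 20 for the venous interaction (10).

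The labels give both conditions replicate numbers 1 and 2. Nothing says that these pair the libraries, and deviations of same-numbered libraries correlated at -0.0889 to 0.415 over 12 classes, so the fits have no such block. With a replicate block 1 member was called in endothelial cells, 1 in capillary, 2 in venous, 0 in arterial and 0 in the other classes, and 3 of 28 member calls changed. That block raised the genes called from 5 to 89 in endothelial, 6 to 66 in capillary and 10 to 45 in venous cells. Vcam1 accounted for the calls in endothelial and capillary cells.

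The CSD difference in the share of endothelial cells with a Cdh5 UMI was -0.963 percentage points thinned and 3.89 unthinned. Endothelial Mcam fell from 9.49 to 5.62 CPM without cells carrying 2 markers of another class. Estimates of members that exceeded their SE as reported and changed sign were not called before or after. Sign changes of estimates within their SE are not listed here. For CSD in venous cells, Pecam1 was -0.0211 without CSD 2 and 0.70 without CSD 1, the range over left-out libraries. In venous against capillary cells without cells carrying markers of another class, Pecam1 was 0.0023 and Cdh5 0.0162, and Cdh5 was 0.18 with the longer venous list and 0.43 thinned. In venous against arterial cells, Pecam1 was 0.0646 without cells carrying markers of another class, Cdh5 0.31 thinned and Esam -0.0483 without the filter. Fits of the venous class with at least 1000 UMIs or 3 subclass markers were not run, because fewer than 10 cells were left in a library.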

Other observations

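The counter-receptors of adhesion molecules were measured in immune and mural cells. Selplg, the ligand of selectins, was at 1625 ± 97.3 CPM (UMI counts-per-million of the class) in microglia and 272 ± 94.8 in T cells (SD, n = 4). Itgam, a chain of a receptor for Icam1, was at 409 ± 9.23 in microglia. Itga4, a chain of the receptor for Vcam1, was at 221 ± 41.6 in pericytes, and its partner Itgb1 at 904 ± 110 in smooth muscle.

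Carriers of selectin ligands were measured in endothelial cells. Emcn was at 632 ± 63.0 and Cd34 at 510 ± 42.0 CPM in the endothelial class (SD, n = 4), and Podxl at 507 ± 95.4 in arterial cells. Venous Sele, the endothelial selectin, had 17 UMIs, all of them in CSD 2 (354 CPM), and venous Selp had 5, also all in CSD 2 (104 CPM). Both had 0 in venous cells of the other 3 libraries, so they rest on 1 library.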
